A study of Mus musculus with 4 samples.

Results

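The genes described here are 9 regulators and effectors of mitochondrial biogenesis, namely the coactivator genes Ppargc1a and Ppargc1b, the transcription factor genes Nrf1, Gabpa, Esrra and Esrrg, the mitochondrial DNA factor gene Tfam, and the mitochondrial protein genes Sod2 and Ucp2. They were taken from the table by gene symbol and not by a cut on their values. Earlier results of these data were known when they were chosen. Each symbol matched 1 of the 29144 features of the table, and all 9 had a mean level of at least 1 FPKM (fragments per kilobase of transcript, scaled to sequencing depth), as did 12877 named genes in all. The libraries were made from poly A+ RNA of the striatum of knock-in mice of an allelic series for Huntington's disease, on the C57BL/6J background and at 21 weeks after birth. The genotypes were HDQ150/150 and HDQ200/200, each with mutant alleles on both chromosomes, HDQ315/+, with 1 mutant and 1 wild-type allele, and HDQ+/+, the wild type. There was 1 library per genotype. The labels state neither the sex of the mice nor whether a library holds 1 animal or a pool.

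PGC-1alpha, the product of Ppargc1a, is a transcriptional coactivator: it does not bind DNA itself but is recruited by factors that do, and it raises the transcription of genes for respiration and for the removal of reactive oxygen species. Its main partners on mitochondrial genes are NRF1, the ETS factor GABP and the estrogen-related receptors, and Tfam, which packages and transcribes mitochondrial DNA, is a known target of NRF1 and GABP. Reduced PGC-1alpha activity has been discussed for striatal neurons in Huntington's disease, and the comparisons below ask how the transcripts of this network stand in each mutant against the wild type.

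The libraries held between 25058813 and 36877649 fragments assigned to the table. With 1 library per genotype there is no spread between animals and no p-value. Differences are log2 ratios of FPKM + 1, on which changes of weakly expressed genes look smaller than they are, and a gene is called higher or lower from 1.5-fold. Ratios of the deposited scaled counts, which carry no correction for length, are given with an exact 95% Clopper-Pearson interval, which covers counting error only. All 3 mutants were set against the same HDQ+/+ library. Among the 12877 genes, HDQ150/150 had 2.92% called higher and 3.32% lower. HDQ200/200 had 5.37% higher and 8.78% lower, and HDQ315/+ had 2.9% higher and 2.12% lower. The libraries differed in their cell type markers. The 14 projection neuron markers, the signature of striatum, summed to 1613, 1580 and 2436 FPKM in HDQ150/150, HDQ200/200 and HDQ315/+, against 3656 FPKM in HDQ+/+. The 10 cortical markers summed to 323, 183 and 128 FPKM in the mutants in the same order, against 97.5 FPKM in HDQ+/+. The 8 thalamic markers summed to 26.1, 31.8 and 129 FPKM, against 25.6 FPKM, and the 9 choroid plexus markers to 68.6, 54.7 and 315 FPKM, against 1565 FPKM. No marker of these lists was listed at 0 in any library. The hepatocyte gene Alb stood at 0.118, 0.101 and 77.0 FPKM in the mutants in the same order, against 0.132 FPKM in HDQ+/+. Apoa1 stood at 0.240, 0.0799 and 25.6 FPKM, against 0.393 FPKM. Both passed the filter of 1 FPKM only through HDQ315/+, so hepatocyte genes called higher there are not counted. Ttr, on the hepatocyte and choroid plexus lists, was lower in HDQ315/+ (−2.31). In such bulk tissue, fewer cells of a type and less RNA per cell cannot be told apart.

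The sequences before the transcription starts of Tfam, Gabpa and Esrra are shown because they carry the letters through which NRF1 and GABP are known to act within this network. They are the 250 bases before the start listed by RefSeq for GRCm38.p6, the build of the table (mm10). The RefSeq promoter table had an entry for 8 of the 9 genes. The listed start of Tfam is the start of its feature in the table, that of Esrra lies 119 bases inside it, and that of Gabpa lies 7253 bases inside a feature whose locus it shares with Atp5j. Capitals mark matches to the NRF1 core (GCATGCG) or the GABP core (CCGGAAG) on either strand.
Tfam, chr10:71238045-71238294, minus strand: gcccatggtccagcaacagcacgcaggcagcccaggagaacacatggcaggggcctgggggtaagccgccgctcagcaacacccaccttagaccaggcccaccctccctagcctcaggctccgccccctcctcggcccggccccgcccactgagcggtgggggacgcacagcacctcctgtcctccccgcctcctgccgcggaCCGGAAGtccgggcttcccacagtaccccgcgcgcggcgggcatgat
Gabpa, chr16:84834874-84835123, plus strand: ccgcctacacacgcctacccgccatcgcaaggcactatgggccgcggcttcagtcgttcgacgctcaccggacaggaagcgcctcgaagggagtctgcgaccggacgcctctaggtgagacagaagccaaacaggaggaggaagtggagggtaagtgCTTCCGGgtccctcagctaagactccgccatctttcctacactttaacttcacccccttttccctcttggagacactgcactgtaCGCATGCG
Esrra, chr19:6921809-6922058, minus strand: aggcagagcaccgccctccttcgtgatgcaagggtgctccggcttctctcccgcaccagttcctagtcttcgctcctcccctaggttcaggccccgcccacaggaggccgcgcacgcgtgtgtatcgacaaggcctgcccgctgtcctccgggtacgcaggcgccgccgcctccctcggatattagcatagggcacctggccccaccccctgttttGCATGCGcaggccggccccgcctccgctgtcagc

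In the letters above, Tfam held 1 GABP core, which begins 47 bases before the start, and no NRF1 core. Gabpa held a GABP core on the reverse strand 93 bases before its start and NRF1 cores on both strands that overlap each other in the last 8 bases. Esrra held 1 NRF1 core, 34 bases before its start. Of the 32851 promoter windows of this length in the RefSeq table, 3.02% held the NRF1 core and 6.91% the GABP core on either strand. The core of the estrogen-related receptor site (AAGGTCA), present in 4.08% of windows, was in no window of the 8 genes. The core of the CREB site (TGACG), in 17.8% of windows, was in those of Ppargc1a and Ucp2. The Ppargc1a start listed by RefSeq lies 13804 bases upstream of the feature measured here, so its window is not shown. Of the genes not shown, Esrrg held 2 NRF1 cores on the reverse strand before the second of its 4 listed starts. A match is a description of letters and not of binding.

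The coactivator genes Ppargc1a and Ppargc1b had the same order of levels, highest in HDQ200/200 and lowest in HDQ315/+. Ppargc1a (XLOC_019889, mm10 chromosome 5, 51454249 to 51553921) stood at 5.83 FPKM in HDQ150/150, 9.003 FPKM in HDQ200/200 and 5.76 FPKM in HDQ315/+, against 7.34 FPKM in HDQ+/+, from 790, 1690, 817 and 1574 fragments. The HDQ150/150 and HDQ315/+ libraries lay below the wild type and the HDQ200/200 library above it. Log2 ratios were −0.29, 0.26 and −0.30, so that Ppargc1a was under the fold size in all 3 comparisons. On scaled counts the ratios to HDQ+/+ were 0.817 (95% interval 0.749 to 0.890) in HDQ150/150, 1.23 (1.15 to 1.32) in HDQ200/200 and 0.751 (0.689 to 0.818) in HDQ315/+. Between the HDQ150/150 and HDQ315/+ libraries the ratio was 1.09, with an interval that holds 1 (0.985 to 1.20).

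Ppargc1b encodes PGC-1beta, the close relative of PGC-1alpha, which shares much of its activity on respiratory genes. It was called lower in HDQ150/150 and in HDQ315/+. Ppargc1b (XLOC_012237, chromosome 18, 61291444 to 61400431) stood at 1.81 FPKM in HDQ150/150, 4.15 FPKM in HDQ200/200 and 1.75 FPKM in HDQ315/+, against 3.31 FPKM in HDQ+/+, from 507, 1641, 557 and 1457 fragments. The first and last of the mutants were close to each other, and HDQ200/200 was again above the wild type. On the log2 scale the ratios were −0.62, 0.26 and −0.65, and those of scaled counts were 0.566 (0.511 to 0.627), 1.29 (1.20 to 1.39) and 0.553 (0.501 to 0.610). Both calls ended after a correction for transcript length, at −0.50 in HDQ150/150 and −0.42 in HDQ315/+, and the HDQ200/200 value then turned to −0.27. Of the 14 projection neuron markers, 13 were called lower in HDQ150/150 (median −1.08), 10 in HDQ200/200 (−0.80) and 6 in HDQ315/+ (−0.57), and their part in the result was not tested.

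**Figure D1:**
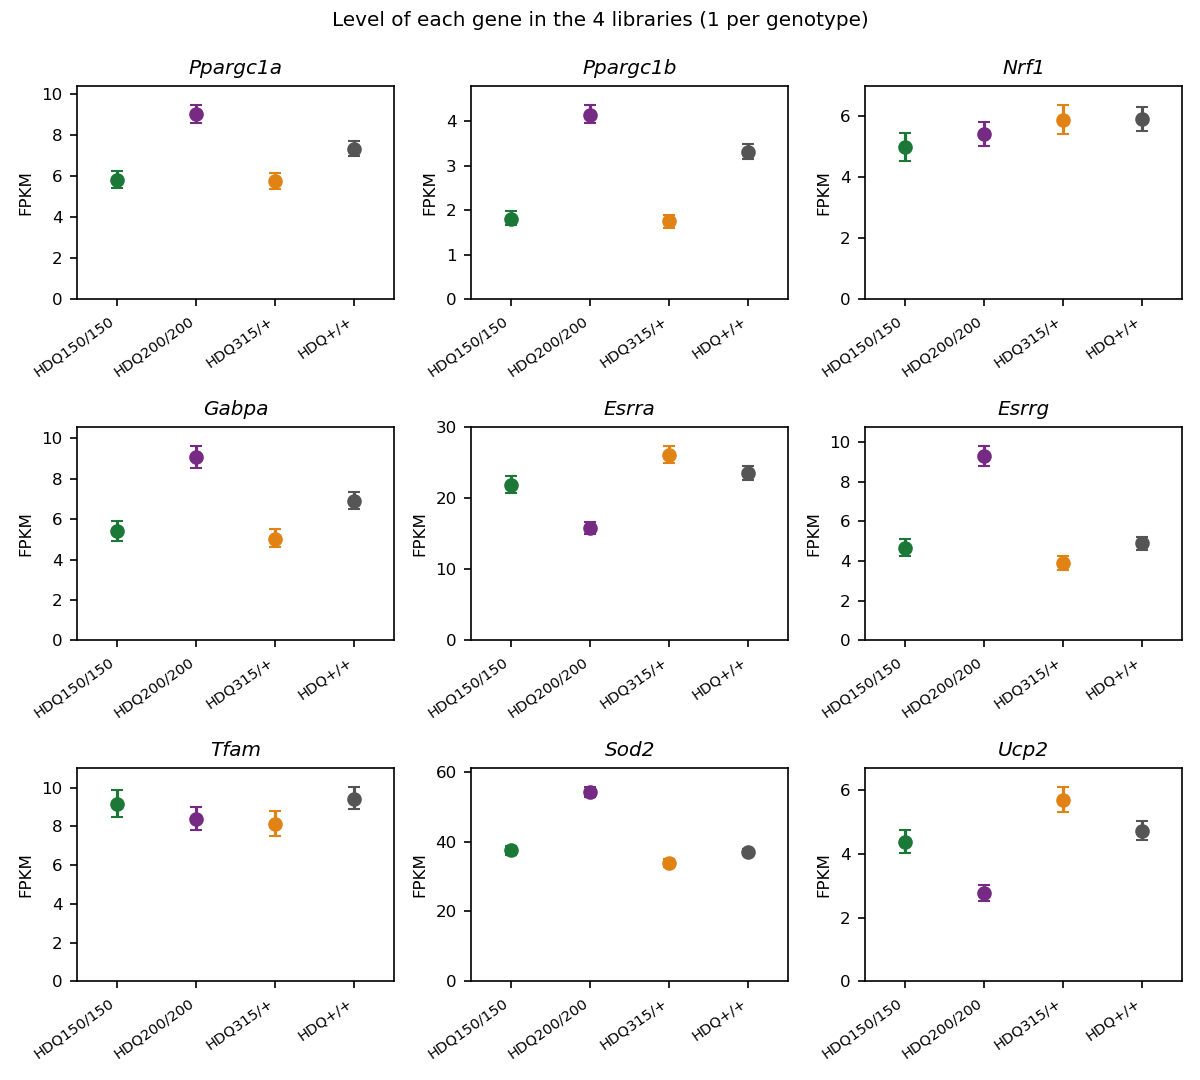
Level of each of the 9 genes in FPKM (vertical axes, from 0) in the HDQ150/150, HDQ200/200, HDQ315/+ and HDQ+/+ libraries. Points are single libraries, and bars are exact 95% Poisson intervals on the fragments, which cover counting error only. Ppargc1a, Ppargc1b, Gabpa, Esrrg and Sod2 are highest in HDQ200/200, where Esrra and Ucp2 are lowest.

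Among Nrf1, Gabpa, Esrra and Esrrg, whose products recruit the coactivators, Esrrg alone passed the fold size against the wild type, and only in HDQ200/200. Esrrg (XLOC_000631, chromosome 1, 187609006 to 188214890) encodes estrogen-related receptor gamma, an orphan nuclear receptor that activates respiratory genes in neurons and muscle. It stood at 4.67 FPKM in HDQ150/150, 9.27 FPKM in HDQ200/200 and 3.88 FPKM in HDQ315/+, against 4.89 FPKM in HDQ+/+, from 508, 1353, 437 and 825 fragments. HDQ200/200 stood apart from the other libraries. The log2 ratios were −0.06, 0.80 and −0.27, and those of scaled counts 1.002 (0.895 to 1.12), 1.88 (1.72 to 2.05) and 0.766 (0.681 to 0.862). The HDQ200/200 call was kept after length correction (0.70) and after correction for GC content (0.69). Of the 10 cortical markers, 10 were called higher in HDQ150/150, 8 in HDQ200/200 and 2 in HDQ315/+, and of the 8 thalamic markers 1, 2 and 7 were. The part of such cells in the Esrrg values was not tested.

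Esrra (XLOC_012976, chromosome 19, 6909698 to 6921927), which encodes estrogen-related receptor alpha, was the most abundant of the regulators per length. It stood at 21.9 FPKM in HDQ150/150, 15.8 FPKM in HDQ200/200 and 26.1 FPKM in HDQ315/+, against 23.5 FPKM in HDQ+/+, from 1421, 1466, 1923 and 2309 fragments. The log2 ratios of −0.10, −0.55 and 0.14 were under the fold size, and the order of the libraries ran opposite to that of Esrrg, except that HDQ+/+ lay above HDQ150/150 in both. The ratios of scaled counts were 1.001 (0.937 to 1.07), 0.728 (0.681 to 0.777) and 1.20 (1.13 to 1.28). In the GENCODE annotation Esrra shares 73 exonic bases with Trmt112 on the other strand, and the sources used here do not state whether the counting used strand. Trmt112 stood at 31.7, 19.2 and 41.2 FPKM in the mutants in the same order, against 27.4 FPKM in HDQ+/+.

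Gabpa (XLOC_009653, chromosome 16, 84827871 to 84863778) encodes the DNA-binding subunit of GABP. It stood at 5.40 FPKM in HDQ150/150, 9.07 FPKM in HDQ200/200 and 5.04 FPKM in HDQ315/+, against 6.91 FPKM in HDQ+/+, from 504, 1161, 480 and 1027 fragments. Its order was that of the coactivator genes. At log2 ratios of −0.31, 0.35 and −0.39 it was under the fold size throughout, and the scaled-count ratios were 0.798 (0.716 to 0.889), 1.30 (1.19 to 1.41) and 0.676 (0.605 to 0.754). Gabpa lies head to head with Atp5j, a subunit gene of ATP synthase that shares 397 exonic bases with it on the other strand. Atp5j stood at 308, 159 and 343 FPKM in the mutants, against 245 FPKM in HDQ+/+, so its direction was opposite to that of Gabpa in each comparison.

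Nrf1 (XLOC_020801, chromosome 6, 30047433 to 30153458), the gene for nuclear respiratory factor 1, varied less than Gabpa, Esrra and Esrrg. It stood at 4.98 FPKM in HDQ150/150, 5.40 FPKM in HDQ200/200 and 5.88 FPKM in HDQ315/+, against 5.90 FPKM in HDQ+/+, from 490, 725, 637 and 912 fragments. The log2 ratios were −0.21, −0.11 and −0.0045. Of the scaled-count ratios to HDQ+/+, that of HDQ150/150 was 0.874 (0.782 to 0.977), and the intervals of HDQ200/200 (0.825 to 1.01) and HDQ315/+ (0.912 to 1.12) held 1.

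Tfam (XLOC_002389, chromosome 10, 71225477 to 71238044) stayed within a narrow range as well. It stood at 9.16 FPKM in HDQ150/150, 8.40 FPKM in HDQ200/200 and 8.14 FPKM in HDQ315/+, against 9.44 FPKM in HDQ+/+, from 694, 838, 623 and 1102 fragments. The highest library was 1.16-fold above the lowest, the smallest range of the 9 genes. Its log2 ratios were −0.04, −0.15 and −0.19, and the scaled-count ratios 1.02 (0.930 to 1.13), 0.871 (0.796 to 0.954) and 0.818 (0.740 to 0.903). The Tfam intervals of HDQ200/200 and HDQ315/+ left out 1. In HDQ200/200 the log2 ratio of Tfam was −0.10 with median centring and −0.08 with upper quartile scaling. The median over all genes tested was −0.05 there.

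Sod2 (XLOC_010372, chromosome 17, 13007827 to 13027076) encodes manganese superoxide dismutase of the mitochondrial matrix and was the most abundant of the 9 genes per length. It stood at 37.5 FPKM in HDQ150/150, 54.2 FPKM in HDQ200/200 and 33.8 FPKM in HDQ315/+, against 37.0 FPKM in HDQ+/+, from 3591, 6496, 3603 and 5767 fragments. The HDQ200/200 library was the highest, and the other 3 lay close together. Its log2 ratios were 0.02, 0.54 and −0.13. The HDQ200/200 value passed the fold size only with median centring (0.59) or upper quartile scaling (0.61), and the ratio of scaled counts was smaller, at 1.29 (1.25 to 1.34).

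Ucp2 (XLOC_022914, chromosome 7, 100493345 to 100502173) encodes uncoupling protein 2, a carrier of the inner mitochondrial membrane that microglia express strongly in brain. It was called lower in HDQ200/200. Ucp2 stood at 4.38 FPKM in HDQ150/150, 2.76 FPKM in HDQ200/200 and 5.68 FPKM in HDQ315/+, against 4.73 FPKM in HDQ+/+, from 560, 483, 820 and 931 fragments. HDQ200/200 lay below the other 3 libraries. The log2 ratios were −0.09, −0.61 and 0.22, and the scaled-count ratios 0.979 (0.880 to 1.09), 0.595 (0.532 to 0.664) and 1.27 (1.16 to 1.40). The HDQ200/200 value was −0.79 after length correction and was no longer called with median centring (−0.55), upper quartile scaling (−0.55) or GC correction (−0.44).

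The microglia markers, 10 genes, summed to 518 FPKM in HDQ150/150, 341 FPKM in HDQ200/200 and 455 FPKM in HDQ315/+, against 391 FPKM in HDQ+/+, and 3 of the 10 were called lower in HDQ200/200 (median −0.26), or 0 after length correction (−0.17). The 8 ependymal markers summed to 26.4, 25.2 and 61.4 FPKM in the mutants in the same order, against 47.5 FPKM in HDQ+/+, with 7 called lower in HDQ200/200, or 1 after length correction. No marker of either list was listed at 0, and their part in the Ucp2 result was not tested. Ucp2 also shares 305 exonic bases with Dnajb13 on the other strand, which stood at 0.968 FPKM or less in every library.

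**Figure D2:**
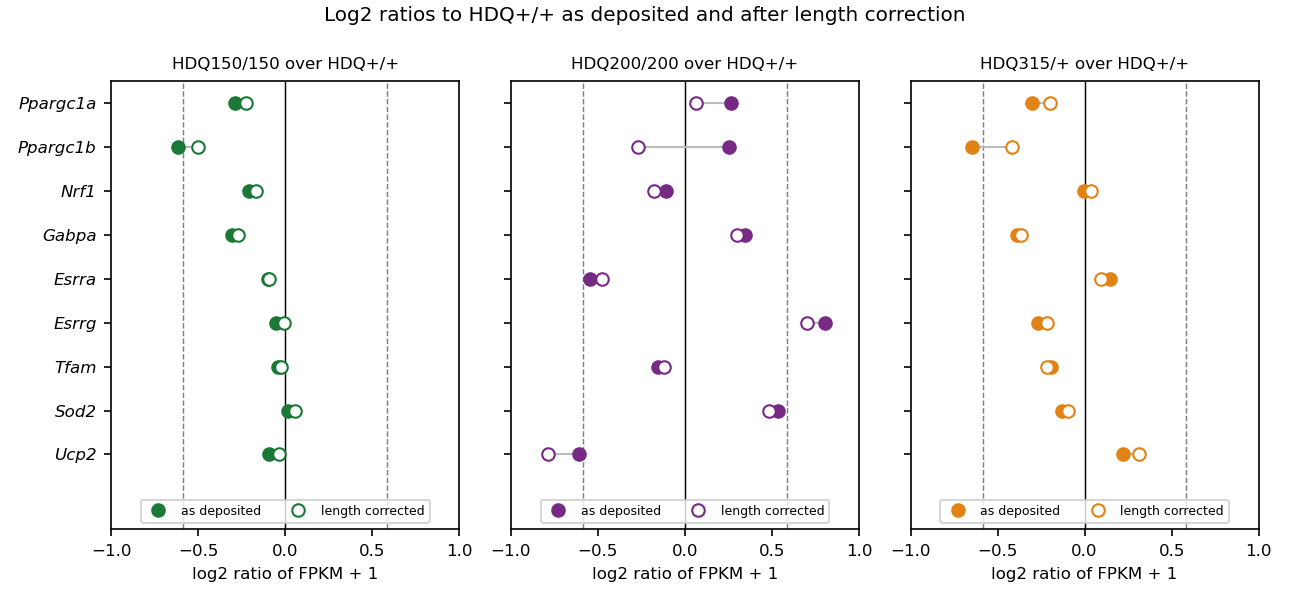
Log2 ratios of FPKM + 1 (horizontal axes) of the 9 genes in HDQ150/150, HDQ200/200 and HDQ315/+ over HDQ+/+. Filled points are values as deposited, open points are values after length correction, and dashed lines mark 1.5-fold. Esrrg is past the upper line in HDQ200/200 with and without the correction, whereas Ppargc1b crosses back inside the lower line in HDQ150/150 and HDQ315/+.

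Counted over the 9 genes, 1 was called lower and none higher in HDQ150/150, 1 lower and 1 higher in HDQ200/200, and 1 lower and none higher in HDQ315/+. With so few genes, 1 call is 11.1% of them, set beside the shares of all genes given above. The median log2 ratio of the 9 genes was −0.10 in HDQ150/150, 0.26 in HDQ200/200 and −0.19 in HDQ315/+, against −0.01, −0.05 and 0.04 over all genes tested. After length correction, described below, the medians of the 9 genes were −0.09, −0.12 and −0.20, so that the HDQ200/200 value changed sign. The interval of the scaled-count ratio left out 1 for 4 genes in HDQ150/150, 8 in HDQ200/200 and 8 in HDQ315/+. The share of all genes whose interval left out 1 was not computed, so these counts cannot be read as particular to the 9 genes. In the order of levels, neighbouring libraries whose interval held 1 were HDQ150/150 and HDQ315/+ for Ppargc1a and Ppargc1b, and HDQ150/150 and HDQ+/+ for Esrra, Esrrg, Tfam, Sod2 and Ucp2. Tfam had a further such pair, HDQ315/+ and HDQ200/200, all neighbours of Nrf1 were such pairs, and Gabpa had none. That Ppargc1a, Ppargc1b, Gabpa and Esrrg shared 1 order of the 4 libraries is not rare in this table: 11.5% of all genes tested had it, and 11.1% had the order shared by Esrra and Ucp2.

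Among the mutants, most calls fell on comparisons with HDQ200/200. Against HDQ150/150, 3 of the 9 genes were called higher in HDQ200/200 and none lower, with Ppargc1b at 0.87, Esrrg at 0.86 and Gabpa at 0.65. Of all genes, 7.62% were called higher and 10.7% lower in this comparison, 18.3% in either direction. Against HDQ200/200, HDQ315/+ had 4 genes called lower, Esrrg (−1.07), Ppargc1b (−0.90), Gabpa (−0.74) and Sod2 (−0.67), and 2 called higher, Ucp2 (0.83) and Esrra (0.69). In that comparison 29.2% of all genes were called. Between HDQ315/+ and HDQ150/150 none of the 9 genes was called, with log2 ratios between −0.22 and 0.31, and 4.44% of all genes were. Ppargc1a lay just under the fold size in both comparisons with HDQ200/200 (0.55 over HDQ150/150, and −0.57 for HDQ315/+ over it), and passed it with a pseudocount of 0.1, median centring, upper quartile scaling or counts scaled to library totals, at 0.61 to 0.66 and at −0.64 to −0.70. Corrections moved it the other way: these ratios were 0.31 and −0.28 after length correction, 0.21 and −0.18 with GENCODE lengths, and 0.34 and −0.38 after GC correction. Both calls of Esrrg between mutants were kept under every alternative that left the gene in.

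Log2 ratios moved with transcript length over the whole table, and the 9 genes differ in length. The length that the table implies, from scaled counts per FPKM, was 11.7 kb for Ppargc1b, 5.55 kb for Ppargc1a, 5.28 kb for Ucp2, 4.39 kb for Esrrg, 4.06 kb for Nrf1, 3.91 kb for Sod2, 3.80 kb for Gabpa, 3.02 kb for Tfam and 2.71 kb for Esrra. In HDQ200/200 the trend over all genes ran upwards with length, through −0.40 at 1 kb, 0.06 at 4 kb and 0.54 at 12 kb. In HDQ315/+ it ran downwards, through 0.24, −0.04 and −0.23 at these lengths, and in HDQ150/150 it was weaker, through 0.07, −0.04 and −0.11.

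Taking the trend out left no gene past the fold size in HDQ150/150 or HDQ315/+, and Esrrg (0.70) and Ucp2 (−0.79) in HDQ200/200. Of all genes, 3.05% were then called higher and 3.23% lower in HDQ150/150. These shares were 3.39% and 3.55% in HDQ200/200, and 1.69% and 2.34% in HDQ315/+. Ppargc1a was then at −0.23 in HDQ150/150, 0.06 in HDQ200/200 and −0.20 in HDQ315/+. Between mutants, Ppargc1b lost its calls (0.25 in HDQ200/200 over HDQ150/150, −0.18 in HDQ315/+ over HDQ200/200), Esrra lost the last of its calls (0.56), and Ucp2 gained one in HDQ200/200 over HDQ150/150 (−0.74). Gabpa kept both of its calls (0.59 and −0.68), which GC correction ended (0.43 and −0.55). GC correction also ended the calls in HDQ315/+ over HDQ200/200 of Ucp2 (0.54) and Sod2 (−0.50). With the longest GENCODE transcript in place of the implied length, Ppargc1b counted as only 3.66 kb and stayed called, at −0.61 in HDQ150/150 and −0.68 in HDQ315/+. The Ppargc1b feature starts at 61291444, whereas the GENCODE gene, on the minus strand, spans 61298136 to 61400431. The feature thus runs past the downstream end of the gene that gave this length.

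**Figure D3:**
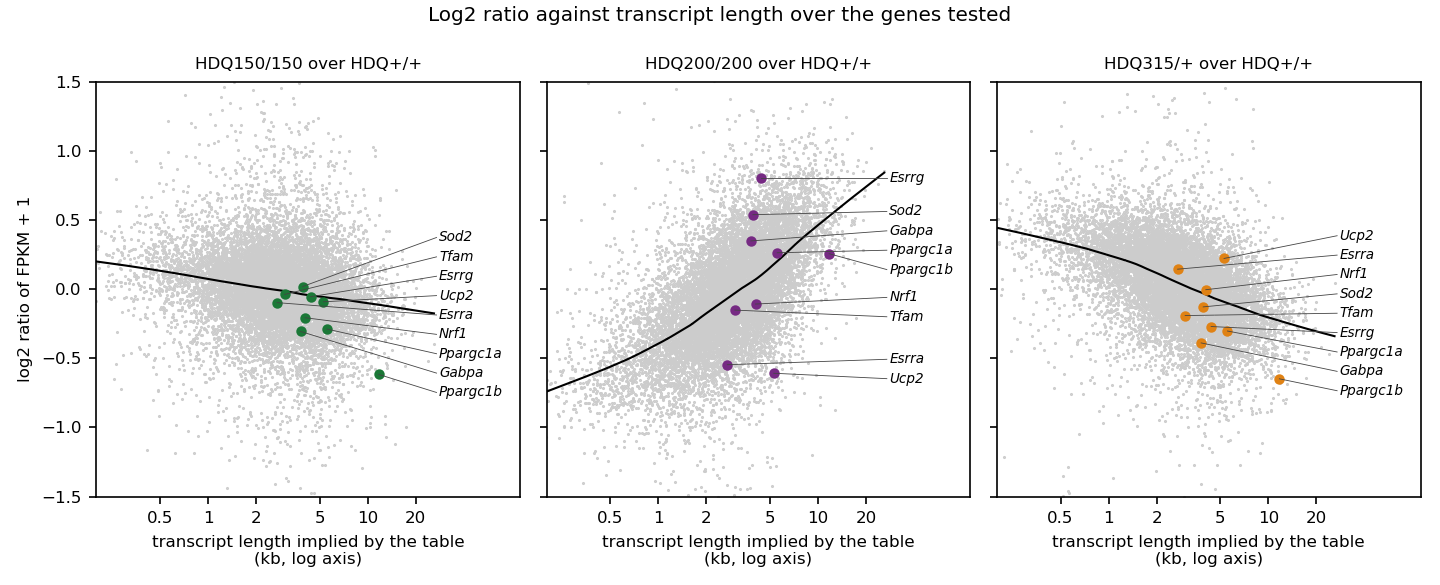
Log2 ratio of FPKM + 1 over HDQ+/+ (vertical axes) against the transcript length implied by the table in kb (horizontal log axes) for the genes tested, in grey, with those between −1.5 and 1.5 shown. The black line is the trend over all genes and the coloured, named points are the 9 genes. The line rises with length in HDQ200/200 and falls in the other mutants, and Ppargc1b lies at the long end.

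The genes with the profile nearest to a given one were found by the distance between centred log2(FPKM + 1) values over the 4 libraries, among 12876 others. For Ppargc1a they were Tmem132b (12.1, 18.3 and 11.9 FPKM in HDQ150/150, HDQ200/200 and HDQ315/+, against 15.0 in HDQ+/+; distance 0.0096), Sorcs1 (0.011) and Aasdh (0.018). For Ppargc1b they were Skil (13.3, 24.5 and 12.8 FPKM in the mutants, against 21.4; distance 0.051), Slk (0.073) and Mdga2 (0.086). For Esrrg they were Frs2 (7.76, 14.8 and 6.62 FPKM in the mutants, against 8.20; distance 0.020), Vps37a (0.021) and Ccdc50 (0.036), and for Ucp2 they were S100a4 (4.21, 2.55 and 5.40 FPKM in the mutants, against 4.47; distance 0.026), Myl12a (0.027) and Igbp1 (0.029). With only 4 points such closeness is common: 1494 genes lay within a distance of 0.25 of Ppargc1a, 1356 of Ucp2, 408 of Esrrg and 148 of Ppargc1b.

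The wider network was described from lists of known partners, regulators and targets, whose counts stand against the shares of all genes called, in HDQ200/200 8.78% lower and 5.37% higher. After length correction these shares were 3.55% and 3.39%. Of the PGC-1 coactivator genes, Pprc1 was the third measured, at 3.297 FPKM in HDQ150/150, 4.10 FPKM in HDQ200/200 and 2.73 FPKM in HDQ315/+, against 2.66 FPKM in HDQ+/+, and passed the fold size in no mutant. Of 14 DNA-binding partners 11 passed the filter on low values. Rxrg, a retinoid X receptor gene that striatal projection neurons express, stood at 33.7 FPKM in HDQ150/150, 29.7 FPKM in HDQ200/200 and 55.1 FPKM in HDQ315/+, against 77.1 FPKM in HDQ+/+, and was called lower in the HDQ150/150 (−1.17) and HDQ200/200 (−1.35) libraries. Esrrg was the only partner called higher. The medians of the list were −0.16, −0.03 and −0.13, and −0.17, −0.18 and −0.15 after length correction.

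Among 19 upstream regulators of PGC-1alpha or its gene, 1 was called higher in HDQ150/150, 4 higher and 1 lower in HDQ200/200, and none in HDQ315/+, with medians of 0.01, 0.21 and −0.12, and of 0.05, 0.15 and 0.02 after length correction. Mef2c, the gene for an activity-dependent factor that binds the Ppargc1a promoter in muscle, stood at 54.9 FPKM in HDQ150/150, 64.7 FPKM in HDQ200/200 and 25.1 FPKM in HDQ315/+, against 33.8 FPKM in HDQ+/+ (0.68, 0.92 and −0.41). Mef2c is also strongly expressed in cortical neurons, and 10 of the 10 cortical markers were called higher in HDQ150/150 and 8 in HDQ200/200. The part of these cells in the Mef2c values was not tested. Prkaa2, a catalytic subunit gene of the AMP-activated kinase, stood at 3.67, 6.54 and 2.50 FPKM in the mutants, against 3.47 FPKM in HDQ+/+, and was called in HDQ200/200 (0.75). The corepressor gene Ncor1 was called higher there as well (0.73) and Stk11, which encodes a kinase that activates AMPK, lower (−0.64). After length correction Mef2c was the only regulator still called higher in HDQ200/200 (0.78), with Prkaa2 at 0.55, Ncor1 at 0.34 and Stk11 at −0.48. Camk4, the gene for a calcium-dependent kinase, was then called lower there (−0.64, against −0.28 before the correction).

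The factors of mitochondrial DNA transcription and replication, 14 genes with Tfam, held no call in HDQ150/150 or HDQ315/+ and 1 in HDQ200/200, where Slirp, an RNA-binding partner of LRPPRC, was lower (−0.60). Their medians were −0.04, −0.29 and 0.14, and after length correction −0.04, −0.06 and 0.01, with Polg2, an accessory subunit gene of the mitochondrial DNA polymerase, then called lower in HDQ315/+ (−0.79, against −0.58 before). Of 10 antioxidant genes, Sod1 (−0.84), Prdx5 (−0.82) and Gpx1 (−0.60) were called lower in HDQ200/200, and none was called in the other mutants. The medians were 0.11, −0.39 and 0.25, and 0.07, −0.07 and 0.07 after length correction. Sod1, the cytosolic superoxide dismutase gene, stood at 473, 272 and 679 FPKM in the mutants, against 487 FPKM in HDQ+/+, so that in HDQ200/200 it and Sod2 lay on opposite sides of the wild type. Slirp, Sod1, Prdx5 and Gpx1 are short, between 0.248 and 0.880 kb by the table, and after length correction they stood at 0.10, −0.30, −0.30 and −0.17 in HDQ200/200, under the fold size.

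Genes of the citric acid cycle and the respiratory chain that this programme is known to activate, 18 in all, had medians of 0.16 in HDQ150/150, −0.33 in HDQ200/200 and 0.31 in HDQ315/+. In HDQ200/200, 2 of the 18, Cox5b (−0.70) and Atp5o (−0.60), were called lower, a share near the 8.78% of all genes, and none was called in the other mutants. After length correction the medians were 0.12, −0.09 and 0.12, and neither gene was called (−0.15 and −0.09). The 6 carriers that passed the filter, all of the list but Ucp1, had medians of −0.05, −0.39 and 0.17, or −0.03, −0.09 and 0.01 after length correction, and no call beside that of Ucp2. Fusion and fission genes had 1 call among 6, Fis1 in HDQ200/200 (−0.71, and −0.26 after length correction). Of 10 import and folding genes, Tomm70a, a receptor of the outer membrane, stood at 80.4 FPKM in HDQ150/150, 117 FPKM in HDQ200/200 and 94.1 FPKM in HDQ315/+, against 146 FPKM in HDQ+/+ (−0.86, −0.32 and −0.63). Its calls in HDQ150/150 and HDQ315/+ were kept after length correction (−0.84 and −0.66). In HDQ200/200 the chaperonin gene Hspe1 (−0.68) and the receptor gene Tomm22 (−0.59) were called lower, and after length correction they stood at −0.11 and −0.16.

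Parvalbumin interneurons are known to need PGC-1alpha for Pvalb, Syt2, Cplx1 and Nefh, and these 4 genes did not move together. Pvalb stood at 50.2 FPKM in HDQ150/150, 28.3 FPKM in HDQ200/200 and 48.2 FPKM in HDQ315/+, against 31.0 FPKM in HDQ+/+ (0.68, −0.12 and 0.62). Ppargc1a was under the fold size in each mutant (−0.29, 0.26 and −0.30), and its part in the Pvalb values was not tested. Nefh was called higher in HDQ315/+ (17.9 FPKM, against 9.37 FPKM in HDQ+/+; 0.86) and Syt2 lower (5.40 FPKM, against 9.05 FPKM; −0.65). After length correction Nefh kept its call (0.95) and Pvalb kept that in HDQ150/150 (0.59), while in HDQ315/+ Pvalb (0.36) and Syt2 (−0.47) were under the fold size. Cortex and thalamus hold cells that express these genes too, and the cortical and thalamic marker sums given above moved in the same libraries; their part was not tested.

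**Figure D4:**
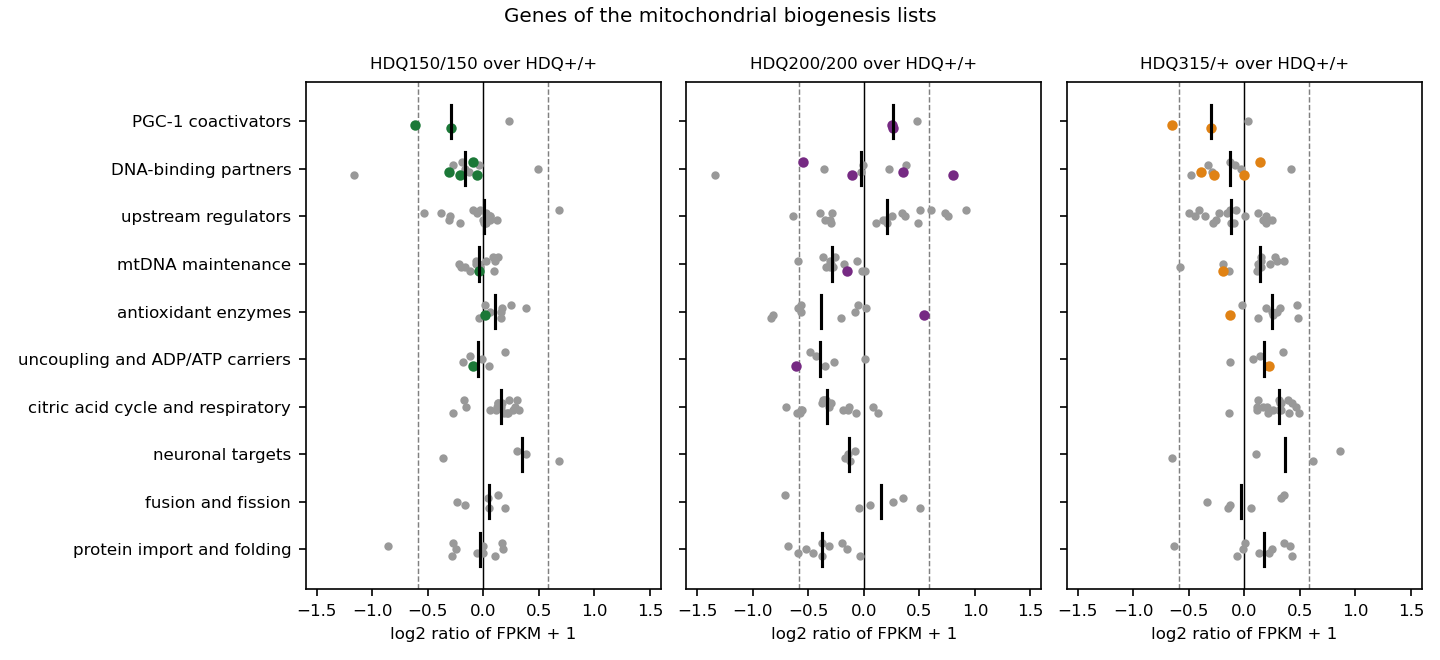
Log2 ratio of FPKM + 1 over HDQ+/+ (horizontal axes) of each measured gene of 10 lists of the mitochondrial biogenesis network. Points are genes, coloured points are the 9 genes of the report, black bars are medians over a list and dashed lines mark 1.5-fold. The citric acid cycle and respiratory list sits at a median of 0.16 in HDQ150/150, −0.33 in HDQ200/200 and 0.31 in HDQ315/+.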

How the data were processed

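The submitters' processing notes name Cufflinks 2.1.1, Cuffnorm, Cuffdiff, TopHat, TopHat2 2.0.11, Bowtie2 2.1.0, bcl2fastq 1.8.4 and the build mm10, with no role or order. Which annotation was used, and whether counting used strand, is not stated there. The deposited FPKM values were used as they stand. The deposited counts are a scaled signal: 98.0% to 98.4% of values above 0 were whole, within 0.05, when divided by a constant of their library (0.781 to 1.27), and that quotient was taken as fragments. Files' starts count from 0 and are printed from 1.

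Unnamed features (5934) and short non-coding RNAs (701) were left out. Genes were tested at a mean FPKM of at least 1, on log2(FPKM + 1). No replicate test was possible. The table's length column is empty, so the planned length correction was replaced, after seeing the data, by a lowess trend (span 0.3) on implied length, on GENCODE M21 length, or on GC content. Lists, members and the rule for named genes (all members, list genes past 1.5-fold, at most 4 per list, and the 3 nearest profiles of Ppargc1a and of called members) were chosen with earlier results of these data known; Pprc1, Camk4, Polg2 and the overlapping genes lie outside that rule and were named after their values were seen. Scripts used Python 3.11.15, pandas 2.3.3, scipy 1.17.1 and statsmodels 0.14.6 and were tested on simulated data.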

Additional observations from a re-analysis of the deposited data

How the results depend on the processing

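Depth limits these values little (437 fragments or more behind each), but 1 library per genotype does. No paired analysis was possible because each genotype has 1 library, and leaving out replicates was not possible for the same reason. With a mean FPKM of at least 10 only Esrra and Sod2 remain, and the genes past 1.5-fold numbered 0 in every comparison except HDQ315/+ against HDQ200/200 (2). In HDQ150/150 and in HDQ315/+ against HDQ+/+ the count was 0 after length correction, in HDQ200/200 against HDQ+/+ it was 1 after GC correction, in HDQ200/200 against HDQ150/150 it was 5 with a pseudocount of 0.1, upper quartile scaling or counts scaled to library totals, and in HDQ315/+ against HDQ200/200 it was 3 after GENCODE length correction and 2 after GC correction; the cause was not tested. Of 60 counts under alternatives 47 kept within 1.5 times of the reported one. No call of the 9 genes changed sign in its own comparison. Over all genes, the share of calls that were higher moved with the setting. Ranges in brackets are over the scalings and the length and GC corrections, and leave out changes of pseudocount or filter. Against HDQ+/+ the share was 46.8% (30.9% to 49.0%) in HDQ150/150, 38.0% (44.2% to 54.5%) in HDQ200/200 and 57.7% (33.9% to 48.4%) in HDQ315/+. Between mutants it was 41.6% (50.1% to 69.6%) in HDQ200/200 over HDQ150/150 and 56.5% (43.1% to 60.3%) in HDQ315/+ over HDQ150/150. In HDQ315/+ over HDQ200/200 it was 62.4% (35.3% to 50.8%). Genes that averaged 10 FPKM or more gave shares of 45.3%, 22.4%, 54.4%, 26.0%, 47.6% and 75.5% in the same order. The number of genes called in these 6 comparisons was 804, 1822, 646, 2361, 572 and 3757 as reported. It was lowest at 382, 894, 294, 813, 185 and 1520 and highest at 1241, 2537, 1076, 3203, 892 and 4649. The lows of 382, 294 and 185 came with the filter of 10 FPKM, which left only 6518 genes. Length correction gave the other lows. The highs came with a pseudocount of 0.1, except 1076, which came with counts scaled to library totals.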

Other observations

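Of the messenger RNAs of the mitochondrial genome, which Tfam helps to transcribe, the 8 described here lay mostly above the wild type in the mutants. These are the genes listed above 0 in every library, and they were chosen after their values were seen. Any listed at 0 in a library was left out. Of these, 3 were called higher in HDQ150/150, 1 higher and 1 lower in HDQ200/200, and 7 higher in HDQ315/+, with median log2 ratios of 0.56, 0.11 and 0.82. Of all genes, 2.92%, 5.37% and 2.9% were called higher in these mutants, and 8.78% lower in HDQ200/200. After length correction 2, 5 and 3 were called higher and none lower, with medians of 0.46, 0.72 and 0.53, so the order of the mutants depends on that correction. The shares of all genes called higher were then 3.05%, 3.39% and 1.69%. The complex I subunit gene mt-Nd5 was called higher in all 3 mutants, at 5561 FPKM in HDQ150/150, 5736 FPKM in HDQ200/200 and 5266 FPKM in HDQ315/+, against 3024 FPKM in HDQ+/+ (0.88, 0.92 and 0.80, and 0.82, 1.26 and 0.59 after length correction). The called lower gene of HDQ200/200 was mt-Nd3, at 8299 FPKM, against 13563 FPKM in HDQ+/+ (−0.71, and 0.11 after length correction). mt-Cytb, the cytochrome b gene, stood at 18058, 12802 and 21749 FPKM in the mutants, against 12177 FPKM in HDQ+/+ (0.57, 0.07 and 0.84, and 0.49, 0.49 and 0.58 after length correction). Tfam stood at 9.16, 8.40 and 8.14 FPKM in the mutants, against 9.44 FPKM in HDQ+/+, and its part in these values was not tested. The RNA was selected for poly A tails, and how far that selection differed between the libraries was not tested.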
